A study of Mus musculus with 16 samples.

Results

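The genes described here encode membrane and membrane-associated proteins of synaptic vesicles: the SV2 proteins (Sv2a, Sv2b and Sv2c), synaptophysin (Syp), the synaptogyrins 1 and 3 (Syngr1 and Syngr3) and the synapsins (Syn1, Syn2 and Syn3). They are 9 of the 25006 genes in the count tables, were chosen by name and were matched to their Ensembl identifiers, and all 9 were among the 12390 genes with enough counts to be tested between genotypes. Sv2c had the smallest p of a list of dopaminergic transmission genes in an earlier analysis of the same libraries, so the difference between genotypes is given for these genes as a description.

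Messenger RNA was collected with the RiboTag method, in which an epitope-tagged ribosomal protein is made only in cells with Cre recombinase, and the tagged ribosomes are immunoprecipitated with the mRNA they carry. The Cre-dependent construct was delivered to the substantia nigra by an adeno-associated virus and tissue was taken 30 days later, at postnatal day 45. Libraries of polyA RNA came from 8 control mice, which were DAT-Cre +/-, and from 8 MCU-KO mice, which carried MCU fl/fl on top of DAT-Cre +/-, with 1 library per mouse. Both groups carried the DAT-Cre allele, in which the dopamine transporter promoter drives Cre, and both received the virus. The controls came from a cross of DAT-Cre with C57/BL6 mice and did not carry the floxed MCU allele, so the deletion and the breeding background cannot be told apart. MCU is the channel through which calcium enters the mitochondrial matrix.

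Synaptic vesicles store transmitter and release it when calcium enters the terminal. SV2 proteins are glycoproteins with many membrane spans that are related to sugar transporters, and they are needed for normal calcium-triggered release. Sv2a is found in nearly all neurons, Sv2b in a more limited set of neurons and Sv2c in the basal ganglia, including the dopaminergic neurons of the midbrain. Synaptophysin and the synaptogyrins are tetraspan proteins of the vesicle membrane, and synapsins are peripheral phosphoproteins that hold vesicles in the reserve pool at rest.

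The paralogs of each family are alike in their coding sequence and differ throughout it. The coding sequences of Sv2a and Sv2b were 68.1% identical, those of Sv2a and Sv2c 67.1%, and those of Sv2b and Sv2c 66.6%. The longest run of identical bases between any pair of these was 26 bases. For the synapsins, the identities were 72.1% for Syn1 and Syn2, 68.1% for Syn1 and Syn3 and 68.6% for Syn2 and Syn3. Syngr1 and Syngr3 were 63.8% identical. No stretch of 50 bases was shared between any of the 9 genes. The most alike coding window of 75 bases in the SV2 family is shown because the counts of Sv2a, Sv2b and Sv2c rest on such differences. Each line is 5′ to 3′ on the coding strand of GRCm38, with capitals for bases that differ from Sv2a.
Sv2a (chr3:96185457-96185531, plus strand): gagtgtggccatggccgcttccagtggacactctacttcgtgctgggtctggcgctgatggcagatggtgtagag
Sv2b (chr7:75206166-75206240, minus strand): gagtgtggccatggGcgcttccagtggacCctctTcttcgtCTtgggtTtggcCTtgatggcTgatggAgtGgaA
Sv2c (chr13:96088296-96088370, minus strand): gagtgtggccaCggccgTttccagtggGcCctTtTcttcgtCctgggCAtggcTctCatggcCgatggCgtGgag

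In this window 57 of the 75 positions were the same in the whole family, with 12 differences from Sv2a in Sv2b and 14 in Sv2c. A window at the start of the synapsin coding sequences, from coding base 1 in Syn1 and Syn3 and from coding base 4 in Syn2, is shown for the same reason, with capitals for bases that differ from Syn1.
Syn1 (chrX:20920715-20920789, minus strand): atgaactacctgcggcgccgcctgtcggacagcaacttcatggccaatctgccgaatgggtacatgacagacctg
Syn2 (chr6:115135084-115135158, plus strand): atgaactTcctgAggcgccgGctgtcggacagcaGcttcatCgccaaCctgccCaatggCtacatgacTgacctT
Syn3 (chr10:86467215-86467289, minus strand): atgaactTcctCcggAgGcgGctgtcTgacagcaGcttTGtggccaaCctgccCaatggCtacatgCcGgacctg

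Here 58 of the 75 positions were the same in the whole family, with 10 differences from Syn1 in Syn2 and 14 in Syn3. Overlap with genes on the opposite strand was larger than overlap with paralogs. Syn3 shared 1733 exon bases with Timp3 and Syn2 shared 90 with Timp4, both tissue inhibitors of metalloproteinases that lie inside the synapsin genes. Syp shared 875 exon bases with the antisense gene Gm14703. The strand setting of the counting is not given in the sources used here, so reads of these overlaps cannot be assigned to a strand.

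Library totals ranged from 18999107 to 22016362 counts in control mice and from 14129527 to 20582204 in MCU-KO mice. The deleted gene, Mcu, had 454 ± 274.2 normalized counts (counts divided by DESeq2's size factors, SD, n = 8) in control and 199.9 ± 139.3 (SD, n = 8) in MCU-KO mice, and the groups overlapped (log2 fold change -1.19, 95% confidence interval -2.41 to 0.04). The dopaminergic genes Th (tyrosine hydroxylase) and Slc6a3 (dopamine transporter) were abundant in both groups, at 114253 ± 16933 and 62800 ± 10384 normalized counts (SD, n = 8) in control. Markers of other cells were also counted. The 12 oligodendrocyte markers summed to between 3001 and 5950 CPM (counts scaled to library size) in control and between 3590 and 7007 in MCU-KO mice, against 15228 to 19019 and 13295 to 21069 for the 12 dopaminergic markers. The 10 astrocyte markers summed to 513.6 to 1024 and 592.4 to 1218 CPM, the 8 GABAergic markers to 229.1 to 460.5 and 246.9 to 442.2, and the 10 microglia markers to 83.0 to 244.1 and 83.9 to 353.6. In edgeR's test between genotypes, 0 genes of these lists or of the glutamatergic and vascular lists had an adjusted p under 0.05, and 2 had an unadjusted one, the astrocyte gene Slc1a2 (log2 fold change 0.31) and the microglia gene C1qc (1.15). The shares of all tested genes were 0.178% adjusted and 4.41% unadjusted. The smallest p in the other lists was that of Sox6 (dopaminergic, 0.42), Gad2 (GABAergic, -0.33), Slc17a6 (glutamatergic, 0.49), Mog (oligodendrocyte, 0.52) and Cldn5 (vascular, -0.98). Genes higher and lower in MCU-KO mice numbered 5 and 7 (dopaminergic), 6 and 1 (GABAergic) and 1 and 2 (glutamatergic). Sox6, Gad2 and Slc17a6 thus went against most of their lists. The numbers were 7 and 3 (astrocyte), 8 and 4 (oligodendrocyte), 8 and 2 (microglia) and 1 and 3 (vascular). Of all tested genes 6241 were higher and 6149 lower. No marker of these lists was at 0 in every mouse, and libraries of the input tissue were not analysed here. In such samples fewer cells of a type and less RNA per cell cannot be told apart.

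The SV2 family was represented mainly by Sv2a and Sv2c. Per kb of exon, Sv2a made up 62.8 ± 2.11% (SD, n = 8) of the SV2 level in control mice, Sv2c 32.3 ± 2.89% and Sv2b 4.95 ± 2.11%. In MCU-KO mice the shares were 57.7 ± 2.19% (SD, n = 8) for Sv2a, 37.7 ± 2.24% for Sv2c and 4.58 ± 1.39% for Sv2b. Sv2c was thus below Sv2a per length in all 16 mice, and above Sv2b in all 16. Without division by length Sv2c, whose exons cover 9.7 kb against 4.636 kb for Sv2a, held 48.5 ± 3.67% of the SV2 counts (SD, n = 8) in control and 54.4 ± 2.51% in MCU-KO mice.

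**Figure D1:**
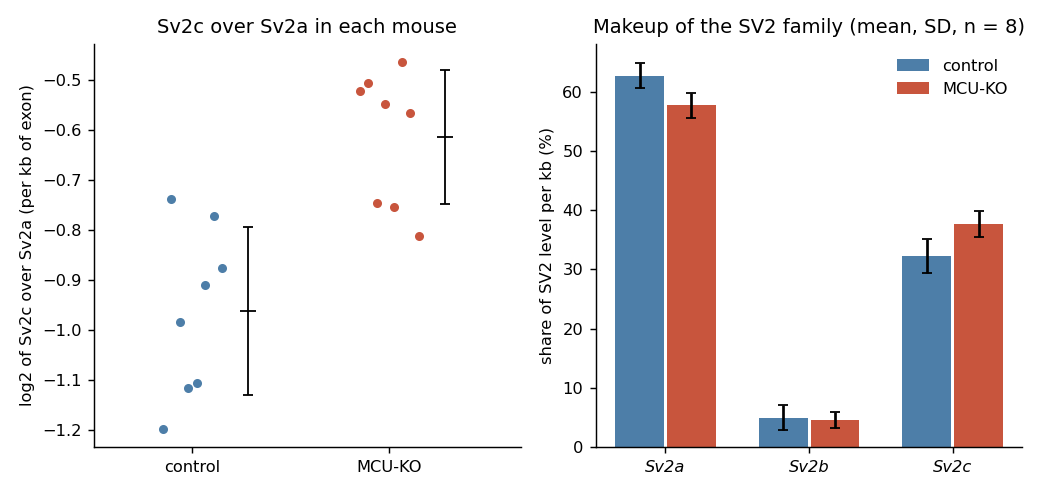
Left, log2 ratio of Sv2c to Sv2a per kb of exon in each mouse, with mean and SD. Right, mean share of each SV2 gene in the summed level per kb (%), with SD (n = 8 mice per genotype). Sv2a held the largest share in both genotypes, 62.8% and 57.7%. The Sv2c to Sv2a ratio of 5 MCU-KO mice was above every control mouse, but the groups overlapped. Sv2c was chosen with its result in this contrast known, and the ratio was not tested.

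Within each mouse, the log2 ratio of Sv2c to Sv2a per kb was -0.96 ± 0.17 (SD, n = 8) in control mice, with a lowest value of -1.20, a median of -0.95 and a highest value of -0.74. In MCU-KO mice it was -0.62 ± 0.13 (SD, n = 8), from -0.81 through a median of -0.56 to -0.46. The ratio of 5 MCU-KO mice was above every control mouse and that of 6 control mice below every MCU-KO mouse, but the groups overlapped. The log2 ratio of Sv2c to Sv2b per kb was 2.80 ± 0.67 (SD, n = 8) in control and 3.11 ± 0.55 (SD, n = 8) in MCU-KO mice, a difference within the spread between mice. These ratios use the genes and the contrast by which the family was chosen and were not tested.

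Sv2c, on chromosome 13 (95954594 to 96132577, GRCm38), had 13384 normalized counts in the lowest control mouse, 15796 at the median and 18582 in the highest. In MCU-KO mice the lowest value was 16358, the median 17839 and the highest 20983. Values of 3 MCU-KO mice were above every control mouse, and 6 control mice were below every MCU-KO mouse. On the log2 scale MCU-KO was higher by 0.22 with a standard error of 0.08 and a 95% confidence interval from 0.06 to 0.38, a fold of 1.17 with an interval from 1.04 to 1.31. The unadjusted p from edgeR's quasi-likelihood test was 0.0098 and the value adjusted over all genes 0.849.

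Sv2a (chromosome 3, 96181151 to 96195521) ranged from 12834 to 17561 normalized counts with a median of 14604 in control mice. In MCU-KO mice it ranged from 12009 to 14484 with a median of 13739. The values of 4 control mice were above every MCU-KO mouse, and the log2 fold change was -0.13 with an interval from -0.29 to 0.03. Sv2b (chromosome 7, 75114894 to 75309262) was the most variable of the family, with 1076 to 4397 normalized counts (median 1812) in control and 889.3 to 2871 (median 1965) in MCU-KO mice. Control mouse 1 had the highest Sv2b value, and the interval of the log2 fold change was wide, from -0.67 to 0.36 around -0.16.

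**Figure D2:**
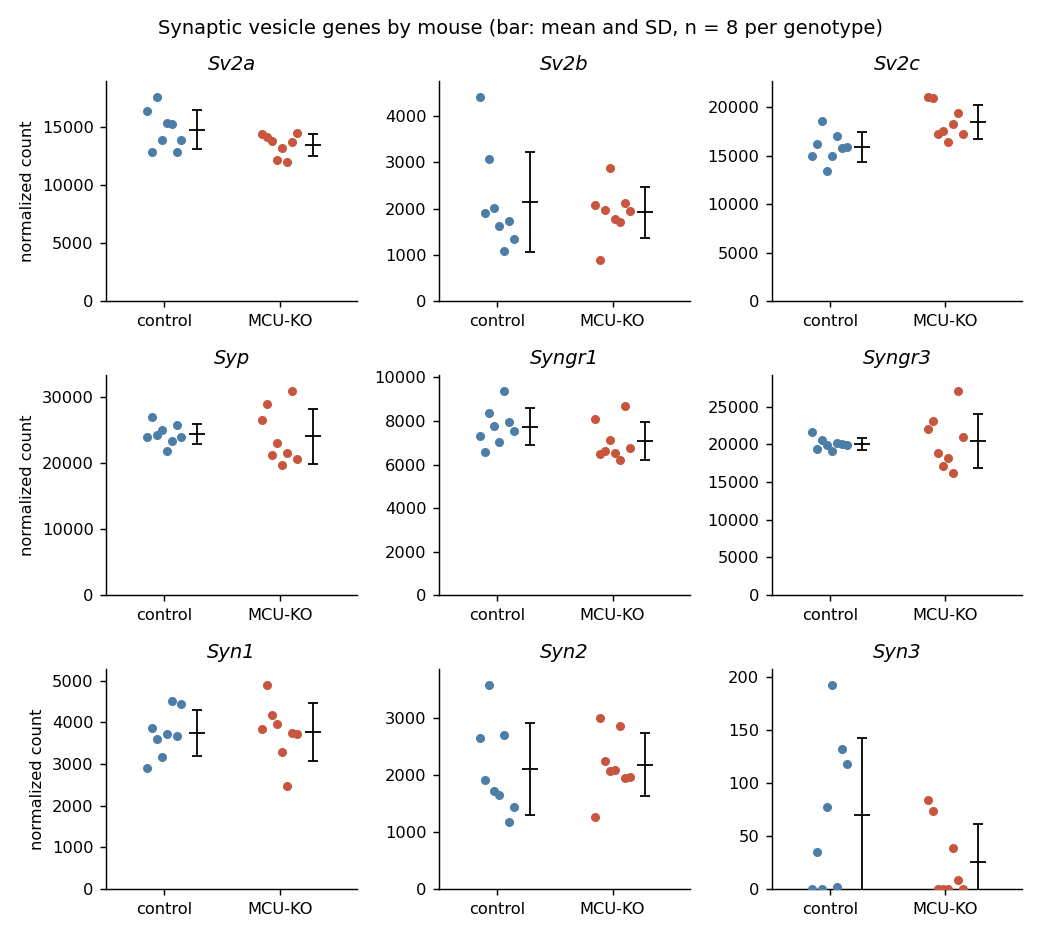
Normalized counts (linear axes from 0) of the 9 genes in each mouse, 8 control and 8 MCU-KO, with mean and SD. The genotypes overlapped for every gene, 3 MCU-KO mice lay above all control mice for Sv2c, and Syn3 was at 0 in 6 of the 16 mice.

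Synaptophysin and the synaptogyrins were measured at high levels. Syp (chromosome X, 7638471 to 7653256) had 21827 to 26864 normalized counts (median 24032) in control mice and 19587 to 30811 (median 22199) in MCU-KO mice. The control values lay wholly inside the MCU-KO range, and the log2 fold change was -0.02 (interval -0.21 to 0.17). Syngr3 (chromosome 17, 24685092 to 24689955) had 19072 to 21669 normalized counts (median 19995) in control and 16230 to 27079 (median 19958) in MCU-KO mice, where again the control values lay inside the MCU-KO range. Its log2 fold change was 0.03 (interval -0.16 to 0.21). Syngr1 (chromosome 15, 80091334 to 80119501) had a median of 7649 normalized counts (6598 to 9372) in control and of 6709 (6192 to 8691) in MCU-KO mice, with 3 MCU-KO mice below every control mouse and a log2 fold change of -0.13 (interval -0.32 to 0.06).

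Syngr3 and Syp differed more among MCU-KO mice than among control mice. The SD of log2 normalized counts of Syngr3 was 0.06 in control and 0.25 in MCU-KO mice, and that of Syp was 0.09 and 0.24. The ratio of these SDs was 4.38 for Syngr3, and 0.412% of the tested genes had a larger one. For Syp it was 2.68, with 2.52% of the tested genes above it, while Th was at 1.46, Slc6a3 at 1.76 and the median of all tested genes at 0.94. The SD of Th was 0.22 in control and 0.32 in MCU-KO mice, and that of Slc6a3 0.22 and 0.39. Both thus varied more than Syngr3 and Syp among MCU-KO mice. Of the MCU-KO mice, mouse 7 had the highest value of Syp, Syngr3 and Syngr1. Among dopaminergic markers, mouse 7 was also highest for Th, Slc6a3 and Ddc and not for Slc18a2. The spread was chosen after the values were seen and was not tested.

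Of the synapsins, Syn1 was the most abundant per length. Syn1 (chromosome X, 20860511 to 20921004) made up 78.9 ± 6.72% (SD, n = 8) of the synapsin level per kb in control and 78.2 ± 6.17% (SD, n = 8) in MCU-KO mice, and Syn2 20.7 ± 7.04% and 21.6 ± 6.17%. Syn1 had 2903 to 4517 normalized counts (median 3701) in control and 2461 to 4898 (median 3795) in MCU-KO mice, with a log2 fold change of 0.01 (interval -0.25 to 0.27). Syn2 (chromosome 6, 115134902 to 115282006) had 1165 to 3575 (median 1819) and 1263 to 3001 (median 2080), with a log2 fold change of 0.05 (interval -0.38 to 0.49). Neither gene separated the genotypes. Without division by length, Syn1 held 63.8 ± 8.82% of the synapsin counts in control and 63.1 ± 7.94% in MCU-KO mice (SD, n = 8). The exons of Syn1 cover 3.299 kb, against 7.031 kb for Syn2.

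Syn3 (chromosome 10, 86055125 to 86498896) was detected in some mice and not in others. It was at 0 in 2 of 8 control and 4 of 8 MCU-KO mice, and 3 counts correspond to between 0.136 and 0.212 CPM in these libraries, a limit that covers counting error only. In the other mice its counts ran from 2 to 208 in control and from 9 to 87 in MCU-KO mice. The highest control mouse had 192.3 normalized counts and the highest MCU-KO mouse 83.6, and the log2 fold change of -1.44 had an interval from -4.47 to 1.60. Timp3, which shares exon bases with it, had 202.7 ± 131.3 and 170.2 ± 202.3 normalized counts (SD, n = 8), and its part in the Syn3 counts was not tested.

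Per kb of exon, the levels in control mice fell in the order Syngr3 (9704 normalized counts per kb), Syp (4665), Sv2a (3185), Sv2c (1632), Syngr1 (1610), Syn1 (1133), Syn2 (298.7), Sv2b (255.7) and Syn3 (5.65). Neighbours in this order were separated in 8 of 8 control mice, except Sv2c above Syngr1 in 5 and Syn2 above Sv2b in 6. The order was the same in MCU-KO mice, where Sv2c was above Syngr1 in 8 of 8 mice and Syngr1 above Syn1 in 7. Lengths matter for some places in the order. With the longest coding transcript in place of all exons, Syp was at 9383 against 10228 for Syngr3 in control mice, and Syngr1 was above Sv2c in 6 of 8.

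**Figure D3:**
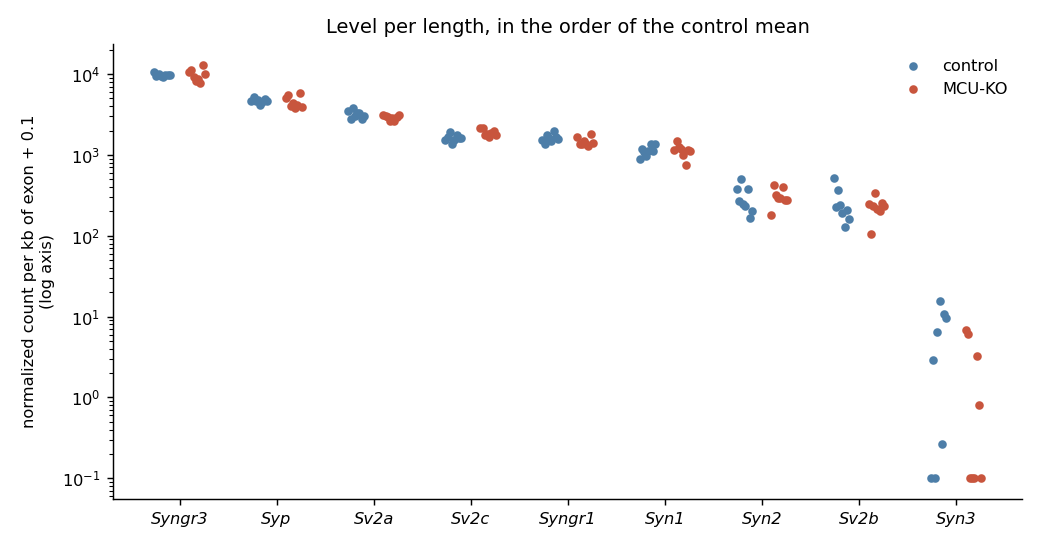
Normalized count per kb of exon plus 0.1 (log axis) in each of the 16 mice, with genes in the order of the control mean. Syngr3 was highest and Syn3 lowest in both genotypes, and Sv2c overlapped Syngr1 in control mice, as Syn2 overlapped Sv2b.

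Between genotypes, 0 of the 9 genes had an adjusted p under 0.05 in edgeR's quasi-likelihood test. Of all genes tested with edgeR, 0.178% did (0.0888% higher and 0.0888% lower in MCU-KO). DESeq2 also called 0 of the 9, where it called 0.557% of the 16171 genes to which it gave an adjusted p. Before adjustment 1 of 9, Sv2c, had a p under 0.05, and 4.41% of all genes did. Since Sv2c was known to have a small p in this contrast when the genes were chosen, nothing is read from this count. Normalized counts did not overlap between genotypes for 0 of 9, against 0.258% of all genes. The median log2 fold change of the 9 genes was -0.02, with 4 higher and 5 lower in MCU-KO mice, and that of all tested genes was 0.0025. The 95% confidence interval lay within -0.5 to 0.5 for 7 of the genes and within -1 to 1 for 8.

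**Figure D4:**
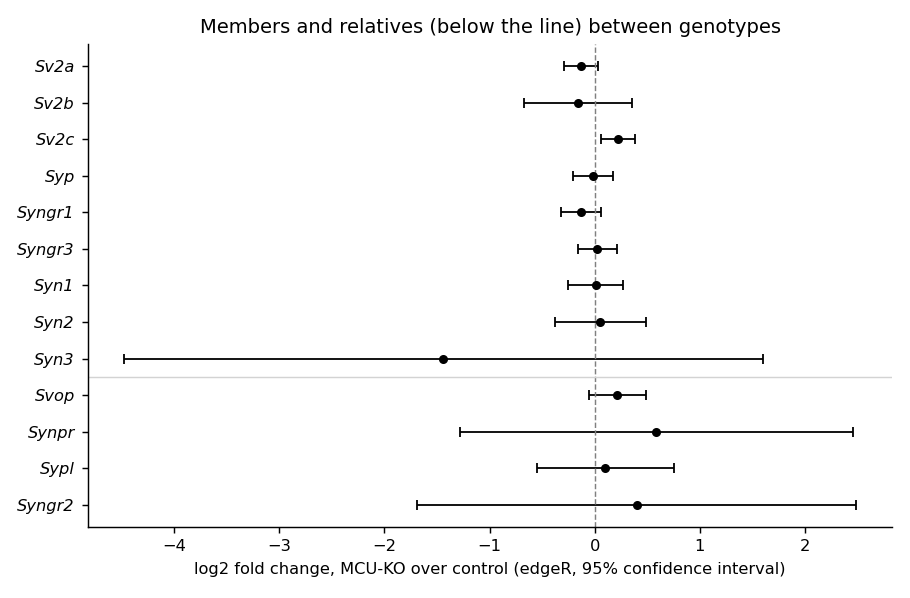
Log2 fold change of MCU-KO over control from edgeR with 95% confidence interval (n = 8 mice per genotype), for the 9 genes and, under the line, 4 tested relatives. The interval of Sv2c, 0.06 to 0.38, was the only one that did not contain 0, but its adjusted p in edgeR's test was 0.849. Sv2c was chosen with its small p in this contrast known. The intervals of Syn3, Synpr and Syngr2 were the widest.

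Among relatives of these families, Svop had mean normalized counts above those of Syn1, Syn2, Sv2b and Syn3 in both genotypes. The other relatives had far fewer counts than Svop. Svop, a vesicle protein related to SV2, had 5565 ± 1259 normalized counts (SD, n = 8) in control and 6452 ± 1016 (SD, n = 8) in MCU-KO mice, with a log2 fold change of 0.21 (interval -0.06 to 0.49). Synpr (synaptoporin) had 122.5 ± 106.5 and 183.8 ± 82.7, Syngr2 126.6 ± 118.7 and 166.5 ± 138.5, and Sypl 466.8 ± 139.4 and 499.1 ± 183.5 normalized counts (SD, n = 8). Svopl was at 0 in all 16 mice, and Sypl2 and Syngr4 were counted in 1 mouse each. Of the 7 relatives 4 were tested, and 0 had an adjusted or unadjusted p under 0.05 in edgeR's test. Of all tested genes 0.178% and 4.41% did.

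Other genes of the vesicle cycle were compared as lists. Of the 12390 genes tested with edgeR, 0.178% had an adjusted and 4.41% an unadjusted p under 0.05. DESeq2 called 0.557% of the 16171 genes to which it gave an adjusted p. The unadjusted counts of the lists were not tested against that share, and nothing is read from them. Of 37 other synaptic vesicle genes, such as synaptotagmins and vesicular transporters, 35 were tested and 0 had an adjusted p under 0.05 (edgeR), with 18 higher and 17 lower and a median log2 fold change of 0.0048. The 1 gene with an unadjusted p under 0.05 was Tprgl, which encodes the presynaptic protein mover, with 8257 ± 1208 normalized counts (SD, n = 8) in control and 10899 ± 2081 (SD, n = 8) in MCU-KO mice (difference 0.40 ± 0.11 on the log2 scale, standard error, with adjusted p = 0.437 in edgeR). All 27 kinase and phosphatase genes on the synapsin list were tested, and 0 had an adjusted and 2 an unadjusted p under 0.05. The smallest p among them was that of Ppp3cb, a catalytic subunit of calcineurin, with 2271 ± 483.1 and 3299 ± 699 normalized counts (SD, n = 8) and a difference of 0.54 ± 0.15 on the log2 scale (standard error), with adjusted p = 0.366 in edgeR. Of 32 genes of clathrin endocytosis and vesicle recycling 31 were tested, and 0 had an adjusted or unadjusted p under 0.05. The smallest p there was that of the endocytic adaptor Epn2, at -0.37 ± 0.21 on the log2 scale (standard error). DESeq2 called 0 genes of these 3 lists.

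The genes were also compared across mice within genotypes, after the genotype mean of log2 CPM was removed. Of the 36 pairs, 7 had an unadjusted p under 0.05 (permutation of mice within genotype, 100000 resamples, two-sided) and 0 an adjusted one. Syp and Syngr3 had the highest r, 0.74 (permutation p = 0.0177, adjusted 0.229; rho 0.62, permutation p = 0.0538, adjusted 0.348; n = 16), which was 0.43 without the 2 mice farthest from the median of Syp. The r was 0.01 within control mice, where both genes varied little, and 0.81 within MCU-KO mice, and the difference between these was not tested. The r of Sv2c and Syp was 0.57 (permutation p = 0.0220, adjusted 0.229; rho 0.63, permutation p = 0.0157, adjusted 0.283; n = 16), 0.04 in control and 0.87 in MCU-KO mice and 0.78 without the 2 farthest mice. Sv2c and Sv2a had an r of 0.39 (permutation p = 0.154, adjusted 0.369; rho 0.20, permutation p = 0.474, adjusted 0.757; n = 16), with 0.41 in control and 0.39 in MCU-KO mice.

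Of all tested genes, those whose log2 CPM was most like that of Sv2c over the 16 mice were Parp1 (r = 0.84), Mon1b (0.79), Reln (0.78), Ap5s1 (0.78) and Nbl1 (0.78). Their levels were far lower, from 49.4 normalized counts for Reln to 862.9 for Ap5s1 in control mice. Syp stood at rank 217 and Sv2a at rank 1036 in this order. The 5 genes were picked for the highest r among all tested genes, with genotype means removed, and these values were not tested.

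The levels across mice were set against the mean log2 CPM of the markers of 5 cell types, 45 relations in all that were added after values had been seen. Of these, 1 had an adjusted p under 0.05 and 8 an unadjusted one. Syn2 followed the 8 GABAergic neuron markers, with r = 0.80 (permutation p = 4.1e-04, adjusted 0.0184; n = 16) and rho = 0.83 (permutation p = 2.9e-04, adjusted 0.0130). The r was 0.79 without the 2 mice farthest from the median of the markers, 0.80 within control and 0.83 within MCU-KO mice. Among 12383 genes outside the marker list, Syn2 stood at rank 10, and the median r of these genes was 0.02. With Gad1, Gad2 and Slc32a1 alone, which make or load GABA, the r was 0.62 and the adjusted permutation p 0.233, so that the relation no longer passed. It also did not pass without control mouse 3 (r = 0.74, adjusted permutation p = 0.111) or without MCU-KO mouse 1 (r = 0.75, adjusted permutation p = 0.157), and passed without each of the other 14 mice. Syn1 had an r of -0.29 and Sv2c of 0.03 with the same markers (adjusted permutation p = 0.503 and 0.927). The difference in r between genes was not tested. Control mouse 3, with the highest Syn2 value of 3575 normalized counts, had a marker mean of 4.11 log2 CPM, and control mouse 7, with the lowest of 1165, had 2.82. GABAergic neurons of the adjacent pars reticulata lie next to the dopaminergic cells, but the source of the marker reads was not tested.

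**Figure D5:**
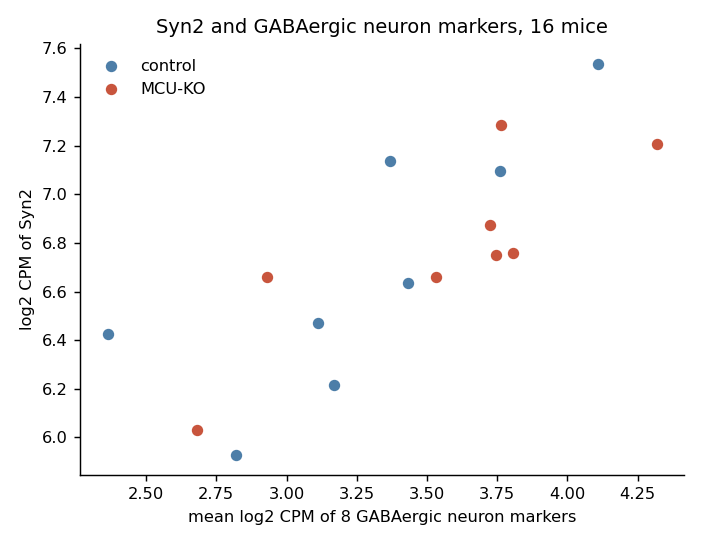
Log2 CPM of Syn2 against the mean log2 CPM of 8 GABAergic neuron markers in each of the 16 mice, by genotype. The points rise together in both genotypes (r = 0.80 in control and 0.83 in MCU-KO mice), and the pooled relation did not pass the adjustment without control mouse 3 or without MCU-KO mouse 1.

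The relations of Syngr3 and Syp with the dopaminergic neuron markers did not pass the adjustment, with r of 0.70 and 0.67 (permutation p = 0.0155 and 0.0221, adjusted 0.233 and 0.249; rho 0.57 and 0.60, adjusted 0.431 for both; n = 16). For Syngr3 the r was 0.38 without the 2 farthest mice, 0.26 in control and 0.78 in MCU-KO mice. In MCU-KO mice Syngr3 also had an r of -0.86 with the microglia markers, and over all 16 mice the r was -0.59 (permutation p = 0.0121, adjusted 0.233; rho -0.43, adjusted 0.465) and 0.01 in control mice. The microglia markers did not stand alone. In MCU-KO mice the r of Syngr3 was -0.83 with the astrocyte, -0.75 with the GABAergic and -0.46 with the oligodendrocyte markers. The values within a genotype were not tested. Sv2c had an r of 0.34 with the dopaminergic and 0.35 with the oligodendrocyte markers (adjusted permutation p = 0.430 for both). With glial markers as a covariate, the log2 fold change of Sv2c was again 0.22 (adjusted p = 0.999 in edgeR). In that fit Sv2b moved from -0.16 to -0.30 and Syn3 from -1.44 to -0.41, and Syp and Syn2, both near 0, changed sign. The part of cell content in these values was not tested.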

How the data were processed

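RiboTag RNA-seq of 8 control and 8 MCU-KO mice was analysed, grouped by genotype labels. The authors trimmed reads (Trim Galore, cutadapt), aligned them to mm10 with STAR, counted reads per gene with HTSeq (htseq-count) and an Ensembl annotation, and deposited the whole-number counts without normalization. Tool versions and the strand setting are not given in the sources used here. 24942 of 25006 identifiers had a symbol in GENCODE M21 (GRCm38, the build that mm10 names), which also gave coordinates, lengths and sequences.

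Genotypes were compared with edgeR 4.0.16 in R 4.3.3 (filterByExpr, TMM, glmQLFit, glmQLFTest, Benjamini-Hochberg over 12390 genes, threshold 0.05), tested on simulated data. Normalized counts are counts divided by DESeq2 1.42.0 size factors. Log2 ratios used a pseudocount of 1, and log2 CPM a prior count of 2. Alternatives were DESeq2, limma 3.58.1, other normalizations and filters, a glial covariate, a block for the mouse number and leaving out each mouse. Another used the log2 CPM of Xist as a covariate. Tables and plots were made with matplotlib 3.10.9, pandas 2.3.3 and numpy 2.4.6 under Python 3.11.15. The members and lists were chosen with earlier results of these data known. Genes named were the members, Mcu, 7 relatives, dopaminergic checks, the gene with the smallest p in each other list where none passed the threshold, and the 5 genes most like Sv2c. The reads carry no molecular identifiers, so detection limits cover counting error only.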

Additional observations from a re-analysis of the deposited data

Results flagged for a closer look

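Of 24 groups of 8 mice examined (9 genes, log2 ratios and library totals), 2 had a mouse far apart from the other 7, and chance gives about 1.2. MCU-KO mouse 2 had a log2 ratio of Sv2c to Sv2b per kb of 4.34, while the other MCU-KO mice lay between 2.39 and 3.20. It had the lowest Sv2b value of the MCU-KO mice, 889.3 normalized counts, and a Sv2c value of 20885. The library of MCU-KO mouse 8 had 14129527 counts in total, against 19897268 to 20582204 in the other MCU-KO mice.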

How the results depend on the processing

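The number of genes changed between genotypes was 22, and 90 with DESeq2, 14 with a block for the mouse number and 18 to 24 when 1 mouse was left out. No pairing by the mouse numbers shared by the labels was seen in correlations of same-numbered deviations. These were -0.06 to 0.03, 0 of 8 were over 0.1, and 0 of 8 mice correlated best with their own number. Such correlations cannot exclude a pairing that moves few genes. The cause of these differences in count was not tested. Of the 9 genes, 0 were called under all 25 alternatives, as were 0 genes of the 3 vesicle lists, and 0 of 36 pairs under 17 alternatives. The log2 fold change of Sv2c lay between 0.19 and 0.26, with the same sign in 25 of 25 and adjusted p from 0.198 to 1.00. These alternatives refit the same libraries, and Sv2c was chosen with its result in this contrast known. Nothing is therefore read from the shared sign. The sign differed from the reported one in some alternatives for Sv2b, Syp, Syngr3, Syn1 and Syn2, whose differences were within the spread between mice. Syn3 lay between -2.99 and -0.41 over 24 alternatives and could not be fitted with at least 10 counts in every mouse. Without division by length, the log2 ratio of Sv2c to Sv2a was 0.10 in control and 0.45 in MCU-KO mice, because the exons of Sv2c are longer. The r of Syn2 with the GABAergic markers, whose alternatives were chosen after seeing the data, was 0.80 with DESeq2 size factors (permutation p adjusted over the 45 relations 0.0216) and 0.62 with Gad1, Gad2 and Slc32a1 alone (adjusted 0.233, no longer past the threshold). It was 0.74 to 0.84 when 1 mouse was left out, with adjusted p from 0.00405 to 0.157, past the threshold in 14 of 16 and not without control mouse 3 or MCU-KO mouse 1.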
